A study of Mus musculus with 30 samples.

Results

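The BCL2 family decides whether a T cell opens its mitochondria and dies, and 10 of its genes were followed here: Bcl2, Bcl2l1, Mcl1, Bax, Bak1, Bcl2l11, Bmf, Bid, Bad and Bbc3. They were chosen by symbol from 20730 gene symbols listed in every count table of a mouse series, and all 10 were found in each table and passed the filter on low counts in every comparison. Bulk RNA was sequenced from T cells sorted out of thymus and spleen of C57BL/6 mice, with 3 libraries per group and 30 in all. WT mice were wild type. CKO mice carried floxed Prmt5 and CD4-Cre, a Cre recombinase driven by Cd4 regulatory sequence, so that Prmt5, an arginine methyltransferase gene, is deleted in the T lineage from the stage at which CD4 appears. No group with CD4-Cre alone was analysed, so Cre activity cannot be told apart from the loss of Prmt5. Age is not given in the sources used here. The populations were thymus double-positive cells (DP, with both CD4 and CD8), thymus CD4 single-positive cells (CD4 SP), thymus CD8 single-positive cells (CD8 SP), spleen CD4 cells and spleen CD8 cells. Animal numbers in the labels link DP with CD4 SP libraries of the same mouse and spleen CD4 with spleen CD8 libraries of the same mouse. For thymus CD8 SP the labels give only a replicate number, so its p-values measure the spread between these samples. Xist was at 4.36 CPM in CKO 1 and at 2153 and 1926 CPM in CKO 2 and CKO 3. CKO 1 therefore came from a different mouse than CKO 2 and CKO 3. Whether each of the other samples is a separate mouse is not given in the labels.

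In the mitochondrial pathway of cell death, Bax and Bak1 proteins form pores in the outer mitochondrial membrane. The survival proteins Bcl2, Bcl-xL (encoded by Bcl2l1) and Mcl1 hold them in check, and BH3-only proteins such as Bim (Bcl2l11), Bmf, Bid, Bad and Puma (Bbc3) bind the survival proteins and release that check. In the thymus, DP cells are known to depend on Bcl-xL and mature T cells on Bcl2, which signals from the interleukin-7 receptor maintain. Bim is a main mediator of the deletion of self-reactive thymocytes.

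Total counts per library ran from 11865646 to 35353441. Levels are given as CPM, a gene's count scaled to a common library total, as means ± SD over 3 libraries, and differences as log2 fold changes ± SE with adjusted p-values from edgeR's quasi-likelihood test over all genes of a comparison. Prmt5 itself was lower in all 3 CKO libraries than in all 3 WT libraries of each population, and passed the test in each but CD4 SP (adjusted p = 0.958). The WT means were 65.1 CPM in DP, 63.9 in CD4 SP, 144 in CD8 SP, 44.3 in the CD4 cells and 63.7 in the CD8 cells of the spleen, against 30.7, 30.2, 116, 22.5 and 35.5 in CKO. Spleen libraries matched their sort: the summed CD4 lineage markers reached 1114 to 1309 CPM in spleen CD4 and 8.02 to 22.9 CPM in spleen CD8. Thymus CD4 SP libraries still carried DP markers (8 genes, among them Rag1, Rag2 and Ptcra), with summed levels of 2116 to 3921 CPM in WT and of 4831 (CKO 14), 212 (CKO 17) and 2224 CPM (CKO 23) in CKO, against 6109 to 7905 CPM in DP. Thymus CD8 SP libraries carried 2173 to 2811 CPM of the same markers and 4189 to 4892 CPM of 6 genes of dividing cells. The genes of dividing cells summed to 1871 to 2995 CPM in DP and to 129 to 426 CPM in the spleen. Those of mature or naive T cells summed to 932 to 1187 CPM in CD8 SP and to 2916 to 3906 CPM in the spleen. How mature the sorted CD8 SP cells were was not tested. In the tables of spleen and thymus CD8 SP cells Trbc1, Trbc2, Ighm and Igkc are listed at 0, so these markers could not be used there. By Ddx3y and Xist, the spleen mice were all female, and thymus CD8 SP held male WT 1 to 3 and CKO 1 with female CKO 2 and CKO 3. For thymus DP and CD4 SP, where Xist is not listed, sex rests on Ddx3y alone, which gave 1 male per genotype (WT 18 and CKO 17). Ddx3y there was also at 3.93 and 3.13 CPM in WT 24 and at 3.76 and 9.10 CPM in CKO 23, beside 0 in CKO 14.

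The start regions of the 4 members that passed the genotype test in at least 1 population are shown because they were higher in CKO. Each is the stretch of 250 bases before the RefSeq start, the farthest upstream where there are several (GRCm38.p6), given on the minus strand on which all 4 genes lie. In capitals stand matches, on either strand, to the GC box (GGGCGG), the CCAAT box (CCAAT) or a p53 half-site. The regions are chr1:106714291-106714540 for Bcl2, chr2:152831729-152831978 for Bcl2l1, chr7:45466899-45467148 for Bax and chr2:118549687-118549936 for Bmf.
Bcl2: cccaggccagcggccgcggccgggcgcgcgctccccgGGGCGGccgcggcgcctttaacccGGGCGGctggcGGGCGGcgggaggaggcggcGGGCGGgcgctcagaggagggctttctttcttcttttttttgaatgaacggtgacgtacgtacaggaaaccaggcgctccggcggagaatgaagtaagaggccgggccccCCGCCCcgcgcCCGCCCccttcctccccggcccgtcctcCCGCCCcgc
Bcl2l1: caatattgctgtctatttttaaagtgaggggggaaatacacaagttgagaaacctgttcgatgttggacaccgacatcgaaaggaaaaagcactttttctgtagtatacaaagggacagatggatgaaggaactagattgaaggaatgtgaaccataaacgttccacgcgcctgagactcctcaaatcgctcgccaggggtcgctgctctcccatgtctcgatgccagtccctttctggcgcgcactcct
Bax: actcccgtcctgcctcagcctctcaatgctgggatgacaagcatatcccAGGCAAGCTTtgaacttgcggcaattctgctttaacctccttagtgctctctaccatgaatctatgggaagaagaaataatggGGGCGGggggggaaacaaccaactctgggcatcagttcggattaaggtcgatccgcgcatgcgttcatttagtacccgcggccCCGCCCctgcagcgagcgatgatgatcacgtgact
Bmf: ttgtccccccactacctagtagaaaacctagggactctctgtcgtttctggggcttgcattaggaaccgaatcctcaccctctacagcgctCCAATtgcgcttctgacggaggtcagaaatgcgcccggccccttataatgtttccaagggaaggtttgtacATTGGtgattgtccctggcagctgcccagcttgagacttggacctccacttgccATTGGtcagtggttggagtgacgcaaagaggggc
The 4 windows have little in common by these letters. Bcl2 held 7 GC boxes in a sequence of 74.8% G and C, Bax held 2 GC boxes and 1 p53 half-site, which began 201 bases before the start, Bmf held 3 CCAAT boxes, and Bcl2l1 held no match. Of all 27025 RefSeq mouse promoter windows of this length, 33% held a GC box, 34.5% a CCAAT box and 7.16% a p53 half-site. The STAT motif TTCNNNGAA, in 7.14% of all windows, was found in 0 of the 10 members, and the FOXO motif GTAAACA, in 3.06%, in 1, Bcl2l11. Over the 10 members, 7 held a GC box, 2 a CCAAT box and 1 a p53 half-site. A match is a description of letters, not a binding site. For Bcl2l1 and Bmf the table lists 3 starts each, and the files do not tell which start the counted reads came from.

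Levels of different genes were compared only per length, as CPM per kilobase of annotated exons. By this measure Mcl1 was the highest of the 10 members in each of the 10 groups, from 102 CPM per kb in thymus CD8 SP of CKO to 223 in spleen CD4 of WT. The last place differed between populations. Bcl2 was last in DP of both genotypes, at 2.97 ± 0.05 CPM per kb in WT. Bad was last in WT CD4 SP and in both CD8 SP groups, Bid was last in CKO CD4 SP, and Bmf was last in each spleen group, at 1.35 to 2.15 CPM per kb. In WT DP the survival genes were therefore represented by Mcl1 at 166 ± 3.11 and Bcl2l1 at 59.0 ± 3.05 CPM per kb. In WT spleen CD8 Mcl1 stood at 197 ± 9.93, Bcl2 at 37.1 ± 2.90 and Bcl2l1 at 3.86 ± 0.09 CPM per kb. Among BH3-only genes, Bbc3 (66.4 ± 8.65) and Bcl2l11 (58.1 ± 5.82 CPM per kb) were the highest in WT DP, a pair that did not differ beyond its spread. Bbc3 (37.8 ± 3.95) and Bcl2l11 (25.1 ± 3.72 CPM per kb) were again the highest of this class in WT spleen CD8. With the length of the longest transcript in place of all exons, Mcl1 stayed first in all 10 groups, and the order below it changed in several groups: in WT spleen CD8, for example, Bcl2 passed Bbc3.

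**Figure D1:**
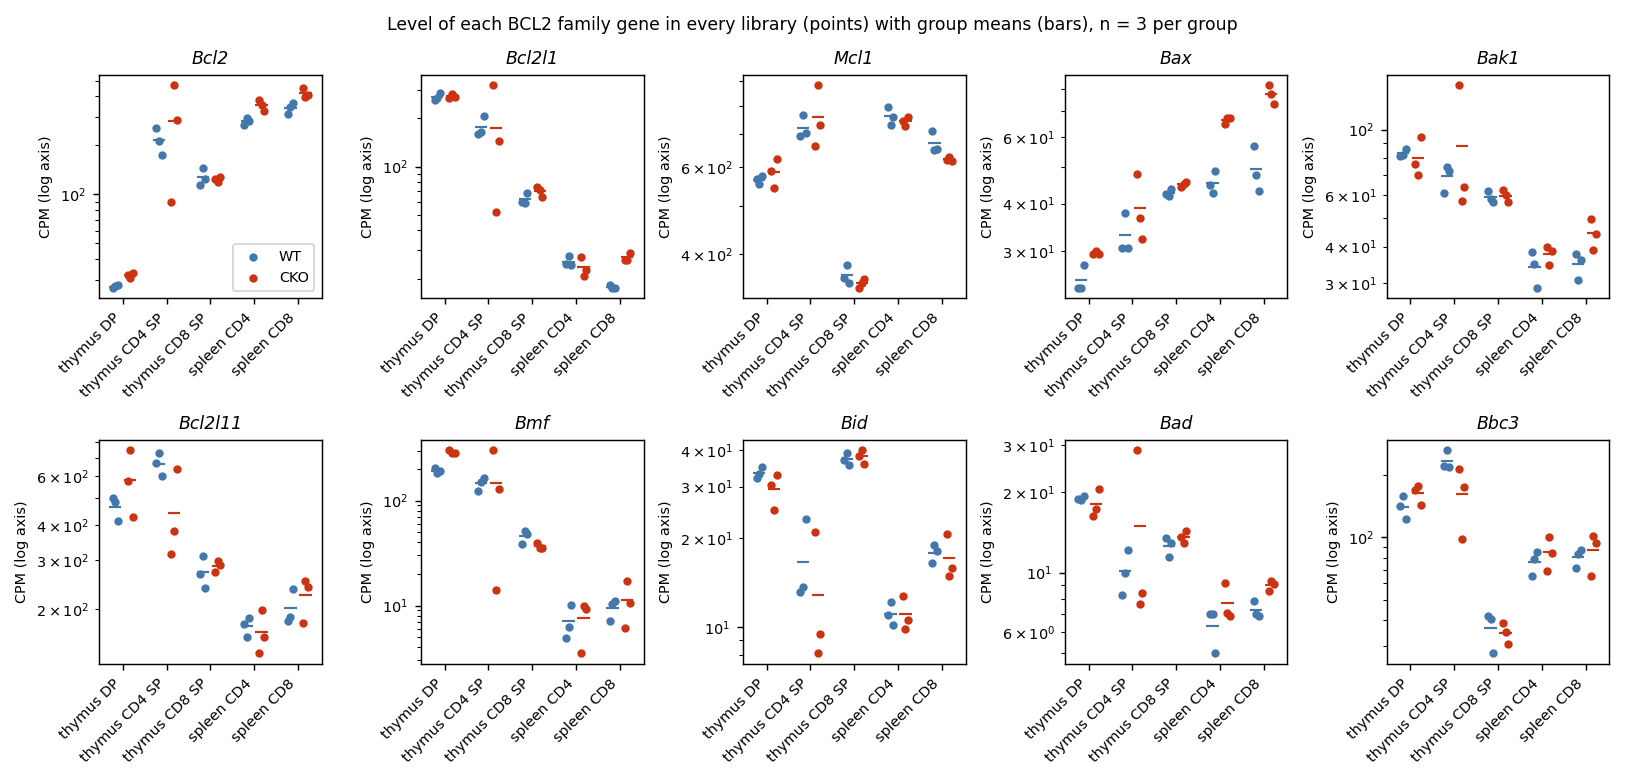
Level of each of the 10 BCL2 family genes in CPM (vertical log axes, which differ between panels) in 5 T cell populations. Points are libraries, 3 per group, blue for WT and red for CKO, and bars are group means; Bcl2 climbs from about 27 CPM in WT DP to 340.0 CPM in WT spleen CD8, while Bcl2l1 and Bmf go the other way.

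Across the 5 WT populations Bcl2 and Bcl2l1, both survival genes, stood at opposite ends: DP had the least Bcl2 and the most Bcl2l1, and spleen CD8 the reverse, while thymus CD4 SP exceeded thymus CD8 SP for both. Bcl2 was highest in spleen CD8 (340.0 ± 26.6 CPM), followed by spleen CD4 (282 ± 13.5), thymus CD4 SP (215 ± 41.3), thymus CD8 SP (129 ± 15.4) and DP (27.2 ± 0.50), and no neighbours in this order overlapped. Bcl2l1 was highest in DP (271 ± 14 CPM), followed by thymus CD4 SP (176 ± 25.8), thymus CD8 SP (62.4 ± 4.83), spleen CD4 (25.6 ± 1.85) and spleen CD8 (17.7 ± 0.39), again with no overlap between neighbours. The BH3-only gene Bmf followed the order of Bcl2l1 up to the spleen, from 192 ± 10.5 CPM in DP over 146 ± 20.2 in CD4 SP and 46.0 ± 6.43 in CD8 SP to 9.54 ± 2.12 in spleen CD8 and 7.11 ± 2.73 in spleen CD4, where the spleen populations overlapped. Mcl1 moved little by comparison, with a highest mean of 762 ± 32.1 CPM in spleen CD4 and a lowest of 362 ± 15.5 CPM in thymus CD8 SP. Bax ran from 25.2 ± 2.10 CPM in DP to 49.2 ± 6.98 in spleen CD8, and its pore-forming partner Bak1 from 83.0 ± 2.57 in DP to 34.0 ± 4.75 in spleen CD4. Bcl2l11 and Bbc3 were highest in thymus CD4 SP (666 ± 63.0 and 235 ± 25.6 CPM), Bid in thymus CD8 SP (37.1 ± 1.69) and Bad in DP (19.0 ± 0.37). The populations come from 3 tables, and levels across tables were set side by side with no test. The table of DP and CD4 SP lists 21983 symbols and the other tables list 46095, and CPM is scaled to each table's own totals. Between tables, population and table cannot be told apart. WT CD4 SP and WT CD8 SP libraries also carried DP markers, with sums of 2116 to 3921 and 2173 to 2498 CPM. In WT CD4 SP, 3 CD8 lineage markers summed to 1657 to 2307 CPM, against 3832 to 4121 CPM in WT DP. The part of this RNA in the order of the populations was not tested. How many of all genes show no overlap between neighbouring populations was not counted.

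Within 1 table, WT thymus CD4 SP could be tested against WT DP of the same mice, a step of maturation in the thymus. Of the 10 members 5 were higher in CD4 SP (Bcl2, Mcl1, Bax, Bcl2l11 and Bbc3), 4 were lower (Bcl2l1, Bmf, Bid and Bad) and 1, Bak1, gave no call. Over all genes tested 21.7% were called higher and 18.1% lower. All 10 members had groups that did not overlap, 5 in each direction, where 27.6% of all genes did not overlap on the higher side and 24.1% on the lower side. The members' median log2 difference was 0.03, beside 0.01 for all genes. Of the 8 DP markers, 7 were called lower in CD4 SP, where they still summed to 2116 to 3921 CPM, and all 6 genes of dividing cells were called lower. The part of these markers in the members' values was not tested. In bulk RNA a smaller share of a cell type and less RNA per cell cannot be told apart.

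Among the survival genes, Bcl2 was at 26.6, 27.3 and 27.6 CPM in the DP libraries of WT 15, 18 and 24 and at 257, 213 and 175 CPM in their CD4 SP libraries. Every CD4 SP library lay several times above every DP library (log2 2.97 ± 0.14, adjusted p = 8.58e-09). Bcl2l1 stood at 259, 267 and 286 CPM in DP and at 159, 164 and 205 CPM in CD4 SP (log2 -0.63 ± 0.11, adjusted p = 7.16e-04), with the library of WT 24 the highest in both populations. Mcl1 was modestly higher in CD4 SP (log2 0.34 ± 0.10, adjusted p = 0.0133), a call lost without animal 15 (adjusted p = 0.0638) or 18 (adjusted p = 0.131). Of the pore formers, Bax was higher by 0.37 ± 0.13 (adjusted p = 0.0311), likewise lost without animal 15 (0.0973) or 18 (0.313). Bak1 had -0.27 ± 0.10 and missed the threshold (adjusted p = 0.0526), but passed with the animal as a block (adjusted p = 0.0400), in DESeq2 (0.0445), with DESeq2 size factors in edgeR (0.0463) and in limma voom (0.0476).

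The BH3-only genes split. Bcl2l11, which encodes Bim, was at 502, 485 and 413 CPM in DP and 671, 727 and 601 CPM in CD4 SP (log2 0.50 ± 0.11, adjusted p = 0.00306). Bbc3, which encodes the p53 target Puma, was at 141, 159 and 122 CPM in DP and 220.1, 264 and 219.9 CPM in CD4 SP (log2 0.72 ± 0.11, adjusted p = 2.68e-04). For both genes all CD4 SP libraries exceeded all DP libraries. Bid, which links death receptor signals to mitochondria, was lower in CD4 SP by a log2 difference of -1.02 ± 0.19 (adjusted p = 9.94e-04). Bad had -0.92 ± 0.15 (adjusted p = 4.50e-04). Bmf had -0.40 ± 0.11 (adjusted p = 0.0100), and its call was lost without animal 15 (adjusted p = 0.107).

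In the WT spleen, CD8 cells were compared with CD4 cells of the same mice. CD8 cells had more Bcl2 and more Bid and less Bcl2l1, so that 2 of 10 members were called higher and 1 lower, beside 15.3% and 16.5% of all genes tested. Groups did not overlap for 2 members on the higher side and 2 on the lower side, against 18.9% and 26.8% of all genes. Other cell type markers differed too. In CD8 cells 9 of 12 effector and NK-like genes were higher and 1 lower (summed levels of 507 to 731 against 162 to 197 CPM), and 4 of 6 genes of mature or naive T cells were higher. All 4 regulatory T cell markers (88.7 to 111 against 545 to 646 CPM), 5 of 6 myeloid markers (11.7 to 18.4 against 49.3 to 72.6 CPM) and 3 of 6 genes of dividing cells were lower. Their part in the members' values was not tested. Bcl2 was at 268, 296 and 282 CPM in CD4 cells of WT 67, 70 and 71 and at 311, 346 and 363 CPM in their CD8 cells (log2 0.31 ± 0.07, adjusted p = 0.00343). Each mouse had more Bcl2 in its CD8 cells, and the groups did not overlap. Bcl2l1 was at 24.6, 27.7 and 24.4 CPM in CD4 cells and at 18.2, 17.5 and 17.5 CPM in CD8 cells (log2 -0.49 ± 0.09, adjusted p = 0.00126). Bid was at 11, 12.2 and 10.1 CPM in CD4 cells and at 16.4, 19.0 and 18.1 CPM in CD8 cells (log2 0.73 ± 0.11, adjusted p = 3.53e-04). Bcl2l11 and Bmf gave no call (log2 0.26 ± 0.09, adjusted p = 0.0546, and 0.47 ± 0.25, adjusted p = 0.177). Both passed with the animal as a block (adjusted p = 0.00774 and 0.0229), which raises the members called higher from 2 to 4, and Bcl2l11 also passed in DESeq2 (0.0243) and without the filter (0.00803). Mcl1 was the second member with lower values in all CD8 libraries (log2 -0.14 ± 0.06, adjusted p = 0.111).

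**Figure D2:**
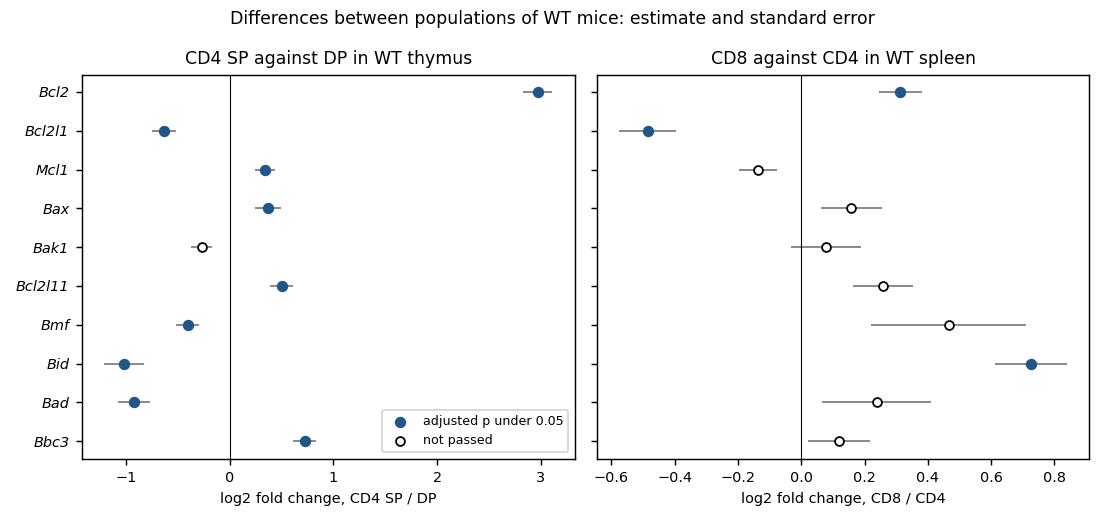
Log2 fold change (horizontal axes, with standard error bars) of the 10 members between populations of WT mice, CD4 SP over DP in the thymus on the left and CD8 over CD4 in the spleen on the right, 3 libraries per population. Filled points passed an adjusted p of 0.05; Bcl2 lies farthest to the right in the thymus at 2.97, and Bcl2l1 is on the left in both panels.

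The comparison of CKO with WT asks how the family stands in T cells in which Prmt5 was targeted; Prmt5 RNA was lower there but still counted. In spleen CD8 cells 3 of 10 members were higher in CKO, the survival genes Bcl2 and Bcl2l1 and the pore former Bax, and 0 were lower. Over all genes 9.83% were called higher and 6.22% lower. The groups did not overlap for 5 members on the higher side (with Bak1 and Bad) and for 1, Mcl1, on the lower side, beside 20.1% and 14.5% of all genes. The median log2 fold change of the 10 members was 0.25, against -0.01 for all genes tested. The same CKO libraries had more RNA of effector and NK-like genes, with 11 of 12 called higher and summed levels of 1190 to 1829 CPM against 507 to 731 CPM in WT. Genes of dividing cells were all called higher (6 of 6, 285 to 426 against 129 to 150.2 CPM), and 5 of 6 genes of mature or naive T cells were called lower (2935 to 3034 against 3749 to 3906 CPM). Of 4 regulatory T cell markers 3 were higher (163 to 177 against 88.7 to 111 CPM), and of 6 myeloid markers tested 2 were higher (27.5 to 48.6 against 11.7 to 18.4 CPM), with S100a9 at or near 0. The part of these differences in the members' values was not tested.

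Bax was at 56.8, 47.6 and 43.1 CPM in spleen CD8 of WT 67, 70 and 71 and at 82.3, 78.0 and 73.2 CPM in CKO 65, 68 and 72. The lowest CKO library lay above the highest WT library (log2 0.64 ± 0.10, adjusted p = 0.00189). Bcl2l1 was at 18.2, 17.5 and 17.5 CPM in WT and at 26.3, 26.2 and 29.1 CPM in CKO (log2 0.60 ± 0.10, adjusted p = 0.00270). WT libraries were nearly alike for this gene, and all CKO libraries stood clear of them. Bcl2 was at 311, 346 and 363 CPM in WT and at 449, 397 and 407 CPM in CKO (log2 0.27 ± 0.07, adjusted p = 0.0287). Its groups did not overlap either, but the call was lost without WT 67 (adjusted p = 0.107), WT 70 (0.0884), CKO 65 (0.0655) or CKO 72 (0.0709).

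Bak1 in spleen CD8 was at 37.6, 30.8 and 36.1 CPM in WT and at 49.6, 39.1 and 44.3 CPM in CKO and missed the threshold (log2 0.32 ± 0.11, adjusted p = 0.0674). It passed in DESeq2 (adjusted p = 0.0468), without the filter (0.0324) and without CKO 68 (0.0366). Mcl1 was at 712, 651 and 655 CPM in WT and at 620.3, 629 and 619 CPM in CKO, lower in each CKO library without a call (log2 -0.13 ± 0.06, adjusted p = 0.184). Bad was at 7.87, 7.02 and 6.87 CPM in WT and at 8.52, 9.31 and 9.09 CPM in CKO, higher in each CKO library without a call (log2 0.28 ± 0.15, adjusted p = 0.220). The other BH3-only genes overlapped between genotypes. Their log2 fold changes were 0.13 ± 0.14 for Bcl2l11, 0.23 ± 0.32 for Bmf, -0.08 ± 0.13 for Bid and 0.09 ± 0.15 for Bbc3, with adjusted p from 0.573 to 0.735. Bmf varied most, at 6.08, 17.2 and 10.7 CPM in CKO 65, 68 and 72.

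In spleen CD4 cells 2 of 10 members were higher in CKO, Bcl2 and Bax, and 0 were lower, beside 8.53% and 5.63% of all genes. These 2 were also the members whose groups did not overlap, where 16.5% of all genes did so on the higher side and 16.5% on the lower side. Bax was at 44.9, 42.7 and 48.7 CPM in WT and at 64.7, 67.2 and 67.2 CPM in CKO (log2 0.56 ± 0.08, adjusted p = 5.86e-04). All CKO libraries stood well above all WT libraries. Bcl2 was at 268, 296 and 282 CPM in WT and at 380.0, 352 and 325 CPM in CKO (log2 0.33 ± 0.07, adjusted p = 0.00820). CKO 72 was the nearest to the WT range and lay outside it. Both calls held in each alternative run, including each library left out.

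The other 8 members of spleen CD4 overlapped between genotypes, with adjusted p from 0.367 to 0.988. Bcl2l1, which rose in CD8 cells, was at 24.6, 27.7 and 24.4 CPM in WT and 27.2, 20.8 and 22.6 CPM in CKO (log2 -0.11 ± 0.11, adjusted p = 0.571). Mcl1 had -0.02 ± 0.06 (adjusted p = 0.860) and Bak1 0.16 ± 0.11 (adjusted p = 0.378). The BH3-only genes ran from -0.06 ± 0.12 for Bcl2l11 to 0.29 ± 0.19 for Bad. The members' median was 0.13, against -0.01 for all genes. In these CKO libraries 3 of 4 regulatory T cell markers were called lower (366 to 424 against 545 to 646 CPM), with Foxp3 at 111 ± 9.15 CPM beside 118 ± 6.26 in WT. All 6 myeloid markers tested were called higher (82.5 to 199 against 49.3 to 72.6 CPM), led by Csf1r and Lyz2. Of 12 effector and NK-like genes 3 were called higher and 1 lower (152 to 249 against 162 to 197 CPM). Of 6 genes of mature or naive T cells 3 were called higher and 1 lower, and of 3 CD8 lineage markers 1 was called higher. The 6 genes of dividing cells all had higher estimates, with 0 called (176 to 384 against 174 to 196 CPM). The part of these differences in the members' values was not tested.

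Whether a genotype effect differed between spleen CD8 and CD4 cells was tested directly, as an interaction over 12 libraries. Bcl2l1 was the 1 member called, with an effect larger in CD8 cells by 0.70 ± 0.15 (adjusted p = 0.0165), and 0 members were called in the other direction, where 1.81% and 0.749% of all genes were. With the animal as a block, which uses that both populations came from the same mice, the value was 0.70 (adjusted p = 0.00401). The call was lost without animal 67 (adjusted p = 0.0626), 70 (0.123), 71 (0.0627), 68 (0.0516) or 72 (0.103), while the difference itself ranged from 0.63 to 0.76. For Bax the effects differed by 0.08 ± 0.13 (adjusted p = 0.897) and for Bcl2 by -0.06 ± 0.10 (adjusted p = 0.902), so no difference between the populations was detectable for these genes.

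**Figure D3:**
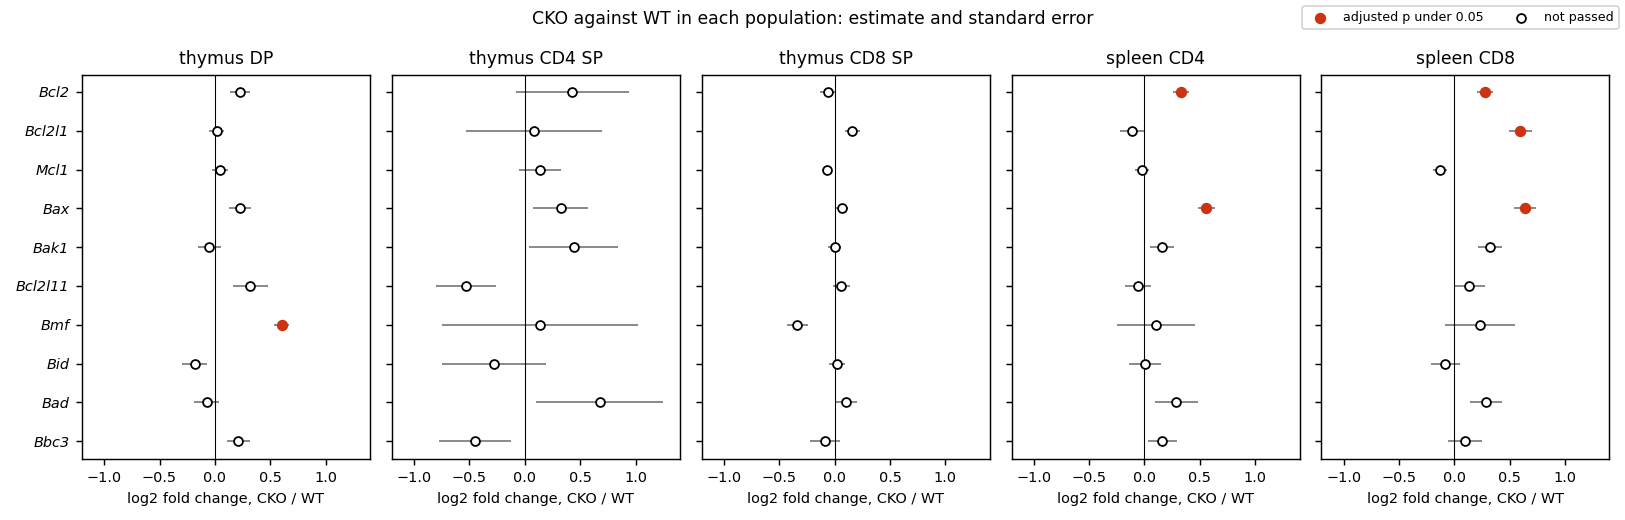
Log2 fold change of CKO over WT (horizontal axes, with standard error bars) of the 10 members in each of 5 populations, from 3 libraries per genotype. Filled points passed an adjusted p of 0.05; these are Bmf in thymus DP, Bcl2 and Bax in spleen CD4, and Bcl2, Bcl2l1 and Bax in spleen CD8, and the widest error bars are those of thymus CD4 SP.

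In thymus DP cells Bmf was the 1 member called higher in CKO and 0 were called lower, beside 0.0172% and 0.0086% of all genes. Bmf, whose protein is held at the cytoskeleton until stress frees it, was at 203, 182 and 189.6 CPM in WT 15, 18 and 24 and at 304, 286 and 286 CPM in CKO 14, 17 and 23. The genotypes were far apart and each group was tight (log2 0.60 ± 0.07, adjusted p = 0.00823). The call was lost without WT 18 (adjusted p = 0.134), WT 24 (0.0773) or CKO 14 (0.134), with the fold change at 0.56 to 0.59, and in a fit over all 12 libraries of the table (adjusted p = 1). Groups did not overlap for 3 members, all higher in CKO, beside 6.58% of all genes on that side and 5.47% on the other. The other 2 were Bcl2, at 26.6, 27.3 and 27.6 CPM in WT and 32.2, 30.6 and 32.7 CPM in CKO (log2 0.23 ± 0.09, adjusted p = 0.693), and Bax, at 23.9, 24 and 27.6 CPM in WT and 29.5, 30.1 and 29.4 CPM in CKO (log2 0.23 ± 0.10, adjusted p = 0.698). The genes of dividing cells had lower estimates in CKO for all 6 (median -0.35), with 0 called and 5 at an unadjusted p under 0.05, and summed to 1871 to 2059 CPM against 1999 to 2995 in WT. The summed regulatory T cell markers were 124 to 142 CPM in CKO and 98.5 to 123 CPM in WT, and the part of both lists was not tested. Neither Bcl2 nor Bax passed the test, though both had an unadjusted p under 0.05, as did 7.07% of all genes.

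Bcl2l11 in DP ranged widely in CKO, at 576, 746 and 429.9 CPM beside 502, 485 and 413 CPM in WT (log2 0.32 ± 0.16, adjusted p = 0.721). CKO 17 was the highest library and CKO 23 lay inside the WT range. The level of Bcl2l1, the main survival gene of this stage after Mcl1, was 271 ± 14 CPM in WT and 274 ± 8.54 CPM in CKO (log2 0.02 ± 0.06, adjusted p = 0.977). The remaining members, Mcl1, Bak1, Bid, Bad and Bbc3, had log2 fold changes from -0.18 ± 0.11 (Bid) to 0.21 ± 0.10 (Bbc3) and overlapped between genotypes. With sex as a term in the fit, an alternative chosen after seeing the data, the calls of the members in all 3 thymus populations were the same, and 4 uncalled estimates changed sign (Bcl2l1 and Bmf in CD4 SP, Bcl2l11 and Bbc3 in CD8 SP).

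Thymus CD4 SP gave 0 members called higher and 0 called lower by edgeR's quasi-likelihood test, 0 at an unadjusted p under 0.05, and 0 by DESeq2 or limma voom. Over all genes 0% were called, with 2.58% at an unadjusted p under 0.05. The CKO libraries varied widely. Bcl2 was at 257, 213 and 175 CPM in WT and at 90.0, 472 and 285 CPM in CKO 14, 17 and 23. CKO 14 lay below and CKO 17 far above all WT libraries. Bcl2l1 was at 159, 164 and 205 CPM in WT and at 324, 52.2 and 143 CPM in CKO, and Bmf at 124, 151 and 163 CPM in WT and 301, 14.1 and 130.2 CPM in CKO. For both genes the order of the CKO libraries was the reverse of that for Bcl2. It was also the order of the DP markers in these libraries, which summed to 4831 CPM in CKO 14, 212 CPM in CKO 17 and 2224 CPM in CKO 23, and Cd8a lay between 43.4 and 2207 CPM in them.

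Without CKO 14 the estimate for Bcl2l1 went from 0.09 to -0.84 and that for Bmf from 0.14 to -1.02, and without CKO 17 that for Bcl2 went from 0.43 to -0.15. None of these passed the test (adjusted p = 0.426, 0.580 and 0.892). Bbc3 was the 1 member whose groups did not overlap, beside 6.12% of all genes on the lower side and 3.93% on the higher side. It was at 220.1, 264 and 219.9 CPM in WT and at 214, 98.4 and 176 CPM in CKO (log2 -0.45 ± 0.32, adjusted p = 0.958). Bcl2l11 was at 671, 727 and 601 CPM in WT and at 316, 381 and 636 CPM in CKO, with CKO 23 inside the WT range (log2 -0.53 ± 0.27, adjusted p = 0.958). Of the genotype effects in CD4 SP and DP, 0 members differed by the interaction test in edgeR, DESeq2 or limma voom, beside 0% of all genes. At an unadjusted p under 0.05 stood 1 of the 10, Bcl2l11 (difference -0.87 ± 0.35, adjusted p = 0.983), and 2.15% of all genes.

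**Figure D4:**
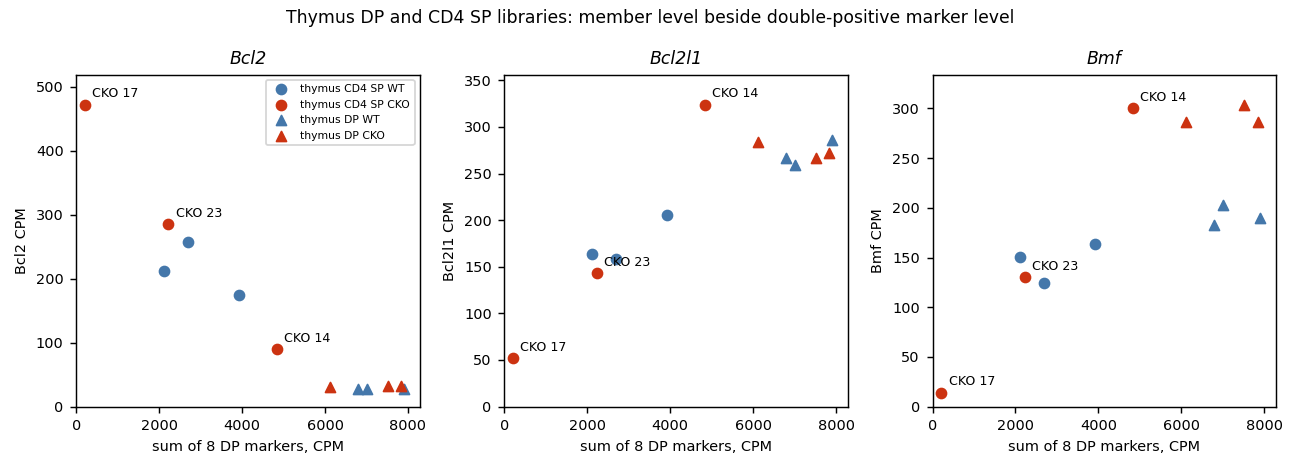
Level in CPM of Bcl2, Bcl2l1 and Bmf (vertical axes) against the summed CPM of 8 DP marker genes (horizontal axes) in the 12 libraries of thymus DP (triangles) and CD4 SP (circles), blue for WT and red for CKO. The CD4 SP libraries of CKO lie at 212, 2224 and 4831 CPM of DP markers, with Bcl2 at 472, 285 and 90.0 CPM in that order.

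In thymus CD8 SP 0 members were called by edgeR's quasi-likelihood test, where 0.0335% of all genes were called higher and 0.0805% lower, and 2 members had an unadjusted p under 0.05, beside 10.4% of all genes. These were Bcl2l1 (log2 0.16 ± 0.07, adjusted p = 0.454) and Bmf (log2 -0.34 ± 0.10, adjusted p = 0.257). Bmf was at 38.9, 51.5 and 47.6 CPM in WT 1, 2 and 3 and at 39.6, 35.3 and 35.3 CPM in CKO, so that WT 1 and CKO 1 overlapped. It was called lower in DESeq2 (adjusted p = 0.0454), without the filter (0.00152) and without WT 1 (0.0454), and not in limma voom. Bax was the 1 member with no overlap, at 42.4, 42.0 and 43.7 CPM in WT and 44.4, 44.9 and 45.5 CPM in CKO (log2 0.06 ± 0.06, adjusted p = 0.765), beside 8.85% of all genes on the higher side and 6.88% on the lower. The other 7 members lay between -0.09 ± 0.14 (Bbc3) and 0.10 ± 0.10 (Bad). The median log2 fold change over the 10 members was 0.01, beside -0.00 for all genes. Prmt5 itself was at 144 CPM in WT and 116 CPM in CKO of CD8 SP (log2 -0.31). That is a smaller drop than in the other populations (log2 -0.87 to -1.09), so the 0 calls are not a result for cells without Prmt5 RNA. The DP marker sums did not overlap (2550 to 2811 CPM in CKO, 2173 to 2498 in WT), nor did those of dividing cells (4763 to 4892 and 4189 to 4663) or of mature or naive T cells (932 to 977 and 1046 to 1187), with 0 genes called in each list, and their part in the members' values was not tested.

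Summed by role, per kilobase of exons, the members gave a description of the balance in each library that carries no test. The survival genes together stood at 228 ± 5.60 CPM per kb in WT DP, 273 ± 8.94 in CD4 SP, 134 ± 5.33 in CD8 SP, 259 ± 7.62 for splenic CD4 cells and 238 ± 7.39 for splenic CD8 cells, in each case mostly Mcl1. The 5 BH3-only genes together stood at 64.5 ± 5.25 CPM per kb in WT spleen CD4 and 72.6 ± 7.59 in WT spleen CD8, against 178 ± 13.1 in WT DP and 230.0 ± 18.7 in WT CD4 SP. WT CD8 SP, at 75.2 ± 8.06, was level with the spleen in this sum. Its libraries held far more RNA of dividing cells and of DP markers than those of the spleen, and less of mature or naive T cells. The ratio of the first sum to the second was 1.29 ± 0.13 in WT DP, 1.19 ± 0.06 in CD4 SP, 1.79 ± 0.15 in CD8 SP, 4.04 ± 0.41 for splenic CD4 cells and 3.30 ± 0.43 for splenic CD8 cells. In CKO the same ratios were 1.08 ± 0.18, 1.96 ± 1.04, 1.75 ± 0.06, 3.92 ± 0.70 and 3.02 ± 0.62. The CKO libraries overlapped the WT libraries in 4 populations. In CD4 SP they did not, with ratios of 1.28 (CKO 14), 3.16 (CKO 17) and 1.43 (CKO 23) in CKO and 1.13 to 1.22 in WT. The DP markers of these CKO libraries summed to 4831, 212 and 2224 CPM in the same order, and their part in the ratios and sums was not tested. The BH3-only sum itself did not overlap in DP, at 178 ± 13.1 in WT and 221 ± 26.2 CPM per kb in CKO, nor in CD4 SP, at 230.0 ± 18.7 and 169.5 ± 59.7. Bax and Bak1 together were at 42.9 ± 1.41 CPM per kb for splenic CD4 cells and 45.7 ± 5.19 for splenic CD8 cells of WT, and at 57.8 ± 0.84 and 67.8 ± 4.40 in CKO, with no overlap in either population. How often sums or ratios of other genes show no overlap was not counted.

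**Figure D5:**
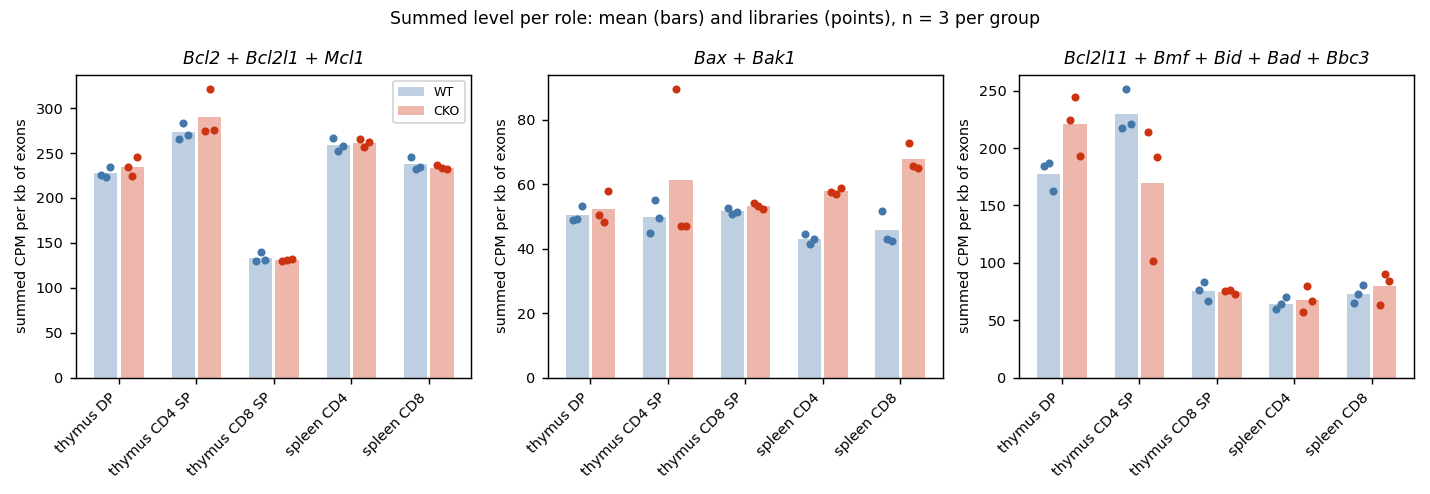
Summed level in CPM per kilobase of exons (vertical axes, from 0) of survival genes (left), pore formers (middle) and BH3-only genes (right) in 5 populations. Bars are means and points libraries, 3 per group, blue for WT and red for CKO; the pore formers of the spleen stand higher in CKO (57.8 and 67.8) than in WT (42.9 and 45.7).

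Around the 10 members, 4 lists of related genes were read in the same fits. The survival relatives are Bcl2a1a, Bcl2a1b, Bcl2a1d, Bcl2l2 and Bcl2l10. In spleen CD8, 1 of 3 tested was called higher in CKO and 0 lower: Bcl2l2, which encodes the survival protein Bcl-w, at 4.01, 3.91 and 4.23 CPM in WT and 8.82, 8.77 and 5.98 CPM in CKO (log2 0.93 ± 0.19, adjusted p = 0.00829). Bcl2l2 lies 366 kb from Prmt5 on chromosome 14, and the part of this position was not tested. In spleen CD4, 2 of 3 were called lower and 0 higher, Bcl2a1b (log2 -0.86 ± 0.18, adjusted p = 0.00748) and Bcl2a1d (log2 -0.82 ± 0.20, adjusted p = 0.0187). Over all genes 9.83% were called higher and 6.22% lower in spleen CD8, and 8.53% and 5.63% in spleen CD4. The Bcl2a1 genes are near-identical copies, so that reads may be split between them and their values are uncertain. The call of Bcl2a1d was lost without WT 67, WT 71, CKO 68 or CKO 72 (adjusted p up to 0.100).

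Of the mitochondrial execution genes, which act after the pore has opened, Apaf1, the scaffold of the apoptosome, was called higher in spleen CD8 of CKO. It was at 53.7, 55.6 and 56.1 CPM in WT and 85.9, 73.5 and 85.1 CPM in CKO (log2 0.54 ± 0.08, adjusted p = 0.00123). All CKO libraries stood above all WT libraries. Of the survival relatives and regulators, the test of the difference between the spleen populations called Bcl2a1d (difference 1.76 ± 0.37, adjusted p = 0.0165) and Dynll2 (0.47 ± 0.12, adjusted p = 0.0448), which lost the call in 4 and in 7 of 12 alternatives. This test called 1.81% of all genes higher and 0.749% lower. Of the other death members, 8 tested, 0 were called in either spleen population, with the smallest p for Bcl2l15 in CD8 (adjusted p = 0.160, unadjusted 0.0472) and for Pmaip1, the gene of Noxa, in CD4 (adjusted p = 0.217). The shares of all genes called were 9.83% higher and 6.22% lower in CD8, and 8.53% and 5.63% in CD4. At an unadjusted p under 0.05 there was 1 other death member in CD8 and 0 in CD4, where 30.2% and 28.5% of all genes stood.

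Regulators of the family gave 20 tested genes. In spleen CD4, 2 were called higher and 2 lower, near the shares of 8.53% and 5.63% of all genes. Trp53, the gene of p53, was higher in CKO by 0.33 ± 0.06 (adjusted p = 0.00453), and Il7r, the gene of the interleukin-7 receptor, by 0.41 ± 0.08 (adjusted p = 0.00720), at 474, 575 and 546 CPM in WT and 706, 641 and 764 CPM in CKO. Stat5a, which transmits the signal of that receptor, was lower (log2 -0.40 ± 0.08, adjusted p = 0.00888), as was the repressor gene Gfi1 (log2 -0.40 ± 0.09, adjusted p = 0.0126, lost without WT 67 at 0.0596). In spleen CD8, 1 was called higher and 2 lower, beside 9.83% and 6.22% of all genes. These were Dynll2, whose protein tethers Bmf (log2 0.36 ± 0.09, adjusted p = 0.0184), the kinase gene Pim2 (log2 -0.46 ± 0.10, adjusted p = 0.00964) and Stat5a (log2 -0.31 ± 0.09, adjusted p = 0.0465). Dynll2 lost its call without WT 67, 70, 71 or CKO 72 (adjusted p up to 0.0783), and Stat5a in 6 of 12 alternatives (adjusted p up to 0.158).

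In the thymus 0 genes of the 4 lists were called between CKO and WT in DP, CD4 SP or CD8 SP by edgeR's quasi-likelihood test. Over all genes at most 0.0335% were called higher and 0.0805% lower, both in CD8 SP. The smallest p in DP belonged to Pim1 (log2 -0.27 ± 0.08, adjusted p = 0.660) and in CD8 SP to Dynll1 (log2 -0.27 ± 0.08, adjusted p = 0.234). At an unadjusted p under 0.05 there were 2 of 20 regulators in DP, 3 of 20 in CD8 SP and 0 of 20 in CD4 SP, beside 7.07%, 10.4% and 2.58% of all genes, and 0 genes of the other 3 lists in all 3 populations.

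The lists were also read between WT populations. From DP to CD4 SP, 8 of 20 regulators were called higher and 4 lower, where 21.7% and 18.1% of all genes were. Il7r was higher by 5.17 ± 0.28 (adjusted p = 3.64e-08), from 3.6, 1.76 and 3.66 CPM in DP to 129.7, 138 and 70.6 CPM in CD4 SP, and Foxo1, a transcription factor gene that acts on Il7r and Bcl2l11, by 1.58 ± 0.11 (adjusted p = 1.94e-07). Pim2 (log2 1.15 ± 0.15) and Ddit3 (log2 0.94 ± 0.14) followed. Of the execution genes Endog was higher (log2 1.2 ± 0.24), and Apaf1 (log2 -0.70 ± 0.13) and Xiap (log2 -0.58 ± 0.12) were lower. Pmaip1 (log2 0.85 ± 0.16) and Bnip3l (log2 0.50 ± 0.12, lost without animal 18 at 0.0649) were the 2 of 6 other death members that were higher, and Bcl2l12 (log2 -0.65 ± 0.13) the 1 that was lower. Of 2 survival relatives tested, 1 was higher, Bcl2a1d (log2 3.24 ± 0.37).

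In the WT spleen, 4 of 20 regulators were higher in CD8 than in CD4 cells and 7 lower, where 15.3% and 16.5% of all genes were. The smallest p belonged to the kinase genes Pim2 (log2 1.12 ± 0.10) and Pim1 (log2 -0.55 ± 0.05), which went in opposite directions, and to Stat5b (log2 -0.45 ± 0.06) and Dynll2 (log2 -0.63 ± 0.08). All 3 survival relatives tested were lower in CD8 cells, Bcl2a1d (log2 -1.98 ± 0.26), Bcl2a1b (log2 -0.91 ± 0.18) and Bcl2l2 (log2 -0.58 ± 0.16, lost without any 1 of the 3 animals, adjusted p up to 0.108). Of the execution genes Apaf1 (log2 -0.35 ± 0.06) and Xiap (log2 -0.27 ± 0.06) were lower, and Vdac2 (log2 0.23 ± 0.06, lost without animal 67 or 70, adjusted p up to 0.0701) was higher. Of 8 other death members 1 was lower, Bcl2l15, at 0.941 CPM in CD4 and 0.314 CPM in CD8 cells, a call lost without animal 67 or 71. These contrasts use the same WT libraries as the genotype comparisons of the spleen, so the 2 kinds of comparison share them.

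Over the 4 spleen group means, the genes whose pattern lay closest to that of Bcl2 among 9539 candidates were Tsen34, Anapc15 and Timm50, with root mean square differences of 0.02 on the log2 scale. Tsen34 had 14.8 and 17.7 CPM in CD4 and CD8 cells of WT and 18 and 21.7 CPM in CKO. For Bmf these were Idh3a (0.01), Stat4 (0.02) and Pgam1 (0.02). Idh3a had 54.2 and 72.5 CPM in WT and 54.9 and 80.2 CPM in CKO. With 4 points such closeness is a description of group means only.

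The exons of 5 members overlap those of another gene in the GENCODE M21 annotation, and the strand setting of the authors' counting is not given in the sources used here. On the opposite strand lie Bcl2l13 (628 bases shared with Bid), Ggnbp1 (614 with Bak1), D630008O14Rik (558 with Bcl2) and Gpr137 (524 with Bad), and on the same strand Gm45808 (192 with Bax). Reads of such partners may be hard to assign. Of these neighbours, Ggnbp1 was called lower in spleen CD8 of CKO (log2 -1.10 ± 0.31, adjusted p = 0.0372) and Gpr137 lower in WT CD4 SP than in DP (log2 -0.41 ± 0.14, adjusted p = 0.0343).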

How the data were processed

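Poly(A) RNA of T cells sorted by flow cytometry was sequenced with a directional kit, per the labels' protocols. The authors deposited raw read counts per gene symbol in 3 tables, one for thymus DP and CD4 SP, one for spleen and one for thymus CD8 SP. HISAT2, HTSeq and the GRCm38 build are listed, with no role, per the submitters' processing notes. For tool versions, gene annotation and strand option nothing is given in the sources used here. Each comparison was fitted on its own 6 libraries (12 for an interaction) with edgeR 4.0.16 in R 4.3.3: filterByExpr, TMM scaling, glmQLFit and glmQLFTest, Benjamini-Hochberg adjustment over all genes tested and a threshold of 0.05. The SE is the log2 fold change divided by the root of F. CPM is a count scaled to a common library total, and lengths are GENCODE M21 exon unions. Total counts ran from 11865646 to 35353441 per library, and their number limits the precision of low genes. The fits were also run on simulated data without animal pairs, and the outcome is not given here.

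Members and lists were chosen with earlier results of these data known. All 10 members are named; genes of the lists were named by call or smallest p, and neighbours by exon overlap or likeness of group means. Other settings tried were limma 3.58.1 voom, DESeq2 1.42.0, edgeR with size factors from DESeq2, no filter, at least 5 CPM in 3 libraries, each library or animal left out, all 12 libraries and a replicate block; sex as a term and the longest transcript were added after seeing the data. Animal numbers in the labels mark libraries of the same mouse. In the spleen the deviations of such pairs correlated at 0.171 to 0.598, and in the thymus at -0.233 to 0.371. Libraries of different mice of a genotype correlated at -0.477 to 0.0153 in the spleen and at -0.256 to 0.216 in the thymus. Each gene was centred on the mean of its group, so values above 0 for the pairs push the values of different mice below 0. The ranges are therefore not independent of each other. The thymus ranges overlap, so there the pairing rests on the labels. Some genes of the lists are not reported here.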

Additional observations from a re-analysis of the deposited data

Results flagged for a closer look

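The genotype effect on Bcl2l1 differed between spleen CD8 and CD4 cells by 0.70 ± 0.15 on the log2 scale (adjusted p = 0.0165, edgeR's quasi-likelihood test of the interaction over 12 libraries). In CD8 cells the level was 17.7 ± 0.39 CPM in WT and 27.2 ± 1.65 CPM in CKO (SD, n = 3), and in CD4 cells 25.6 ± 1.85 and 23.5 ± 3.30 CPM.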

How the results depend on the processing

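Over the alternatives run, 956 of 1050 member values kept their direction and their side of the threshold, 18 lost and 14 gained a call, 62 uncalled values changed sign, and 0 called values did. Most values belong to members without a call, which had none to lose. Calls were lost for Bmf in DP in 4 of 13 alternatives, Bcl2 in spleen CD8 in 4 of 12 and the Bcl2l1 interaction in 5 of 12. Bcl2 and Bax in spleen CD4 and Bcl2l1 and Bax in spleen CD8 lost 0 of 12. The number of members higher in DP of CKO went from 1 to 0 in the fit over all 12 libraries and ranged from 0 to 1 with a library left out. In thymus CD8 SP the members lower in CKO numbered 1 in DESeq2 and 1 without the filter, and 0 to 1 with a library left out. Members higher in CD4 SP than in DP ranged from 3 to 5 with an animal left out, and members with a larger effect in spleen CD8 from 0 to 1. With the replicate block, members higher in WT spleen CD8 than CD4 numbered 4; the block added a call of Bak1 between WT CD4 SP and DP and changed no other call of a member. In thymus CD8 SP, where the samples share only a number, it called 0 members. Same-numbered samples there correlated at 0.0650 to 0.162 and differently numbered ones at -0.135 to 0.00255, ranges that depend on each other through the centring on group means. The causes were not tested. Over all genes, counts higher and lower moved by over 1.5 times in DP (2 and 1, with DESeq2 8 and 11), in CD8 SP (5 and 12, with DESeq2 85 and 125, without the filter 180 and 270) and for the spleen interaction (271 and 112, with DESeq2 429 and 207, without the filter 574 and 270, with the replicate block 672 and 411). With sex as a term CD8 SP had 2 and 1. WT 1 to 3 and CKO 1 were male there and CKO 2 and 3 female, so genotype and sex are largely confounded. CD8 SP had 1 and 0 without WT 2 or WT 3, and 8 and 40 without WT 1. DP had 2 and 38 without WT 15, and 0 and 1 without WT 18. Leaving out 1 library or animal also moved the counts that the shares of all genes rest on: spleen CD4 went from 1219 and 805 to 706 and 379 without WT 71 (past 1.5 times in at least 1 direction also without WT 67, WT 70 or CKO 72), spleen CD8 from 1368 and 866 to 844 and 488 without WT 67 (likewise without WT 70, WT 71 or CKO 72), CD4 SP against DP from 2562 and 2144 to 1636 and 1078 without animal 18, WT spleen CD8 against CD4 from 2166 and 2336 to 1420 and 1757 without animal 70, and the interaction to 131 and 34 without animal 67 (past 1.5 times without each other animal too, for animals 65 and 68 only among the lower genes). Genes under about 10 CPM, such as Bmf in the spleen (95 to 445 counts per library), have the least precise values.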
